A study of Rattus norvegicus with 28 samples.

Results

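The cytosolic ribosomal protein genes were followed through 14 groups of INS-1 libraries. Members were the entries of the deposited TPM table (a transcript level corrected for transcript length and scaled to 1 total in every library) whose symbol was Rpl or Rps followed by a number, with the suffixes a, l, x or y allowed, or was Rplp0, Rplp1, Rplp2 or Rpsa. This rule found 118 entries with 84 symbols. For each symbol the transcript with the highest mean TPM was kept, and 77 of the 84 averaged 1 TPM or more across the 28 libraries. These 77 genes, 47 of the large subunit and 30 of the small subunit, were part of 10275 genes tested in all.

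Gene expression had been measured by bulk RNA-seq in a rat insulinoma line, INS-1, which per the labels was put in serum-free medium before treatment. The cells were WT or carried a serine-to-alanine knock-in in the Mediator subunit Med14 (Med14 S983A), a residue that the study examined as a target of the cAMP-dependent kinase PKA. WT groups were untreated cells (CON) and cells given 10 nM exendin-4 (Ex-4), a GLP-1 receptor agonist, or 10 µM forskolin (FSK), an activator of adenylyl cyclase, for 1, 8 or 16 h, and Med14 S983A groups received the same treatments for the same times. Each of the 14 groups had 2 libraries, whose labels do not say that they came from separate cultures, so p-values measure the spread between these libraries. The knock-in was made by CRISPR editing with a repair template, with more than 1 line made for the study. The labels do not name the line behind a library, so the substitution and other differences between edited and parental cells cannot be told apart. INS-1 is a tumour line and models only part of the biology of a beta cell.

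The libraries held 42551133 to 57231981 fragments, except 1 library of Med14 S983A at 8 h FSK (replicate 2) with 92635979 fragments, and the ERCC spike-in took 0.671% to 1.03% of fragments. Of 12 beta cell markers 11 were in the table and all 11 had a mean over 1 TPM, with Ins1 between 33716 and 67834 TPM. All 15 markers of delta or PP cells, fibroblasts and immune cells had means under 1 TPM. Of 5 alpha cell markers only Gcg passed, with 6.09 to 1345 TPM, while Irx1, Irx2 and Ttr stayed at or under 0.276 TPM. Gcg was at 165 and 169 TPM in WT and at 6.09 and 6.555 TPM in Med14 S983A at CON, a difference of −4.52 on the log2(TPM + 1) scale. In bulk RNA, fewer cells with a transcript and less transcript per cell cannot be told apart.

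A cytosolic ribosome joins a small subunit, which reads the mRNA, to a large subunit, which forms the peptide bond, and nearly every protein of it is made from 1 housekeeping gene. Ribosomal protein mRNAs are among the most abundant of any growing cell. In mammals many of them begin with a 5′ terminal oligopyrimidine (TOP) motif, a cytosine followed by a run of pyrimidines, through which mTOR signalling controls their translation. The parts are needed in equal amounts, so their mRNAs tend to be held at steady levels, and processed pseudogenes, inserted copies of the spliced mRNAs, are numerous in mammalian genomes.

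The start sites of the members that recur below are shown because they bear the TOP motif or lack it. Windows of 30 bases, 15 before and 15 after the start, were cut from RefSeq promoters of GRCr8, and capitals mark a cytosine at the start with the unbroken pyrimidine run that follows it. Such a run needed at least 4 pyrimidines after the cytosine. The windows of Rps24, Rpsa, Rps27l and Rpl22l1 hold no capitals because they did not meet this definition at the annotated start.
Rps18 (chr20:4933730-4933759, + strand): cacgtcacttccgctCTCTCTTCCacagga
Rpl10 (chrX:157205835-157205864, + strand): caggcgtgggagcgtCTCTTTTCCTCTggc
Rpl35 (chr3:43165907-43165936, - strand): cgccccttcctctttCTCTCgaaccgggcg
Rpl37a (chr9:81748076-81748105, + strand): gcatgcccgttgcgtCTCTTCCTCTTCggg
Rplp0 (chr12:46718376-46718405, - strand): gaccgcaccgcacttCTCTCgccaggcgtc
Rps14 (chr18:56498245-56498274, + strand): cccttccgtctctctCTTTCCggtggagga
Rps24 (chr16:96502-96531, + strand): tgagcggtcctcttttcctcctttacagct
Rpsa (chr8:128728864-128728893, + strand): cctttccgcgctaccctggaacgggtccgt
Rps27l (chr8:76443643-76443672, + strand): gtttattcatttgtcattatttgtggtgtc
Rpl22l1 (chr2:113683181-113683210, + strand): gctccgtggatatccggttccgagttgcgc

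Promoters were matched for 61 of the 77 members. A TOP start was present in 22 of the 61 (36.1%) and in 210 of 8140 other tested genes with a promoter (2.58%). With the run allowed to begin within 10 bases of the annotated start, as in Rps24, the shares were 45 of 61 (73.8%) and 28.6%. Members that met the strict definition had pyrimidine runs of 5 to 12 bases including the first cytosine.

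The promoter windows used for other motifs reached 250 bases before and 50 after the start, and both strands were searched. CCGGAAG, the core of ETS and GABP sites, was in 20 of 61 members (32.8%) and in 18.9% of the other tested genes. TGACG, the short CREB site, was in 28 of 61 (45.9%) against 34.1%, and TGACGTCA, the full CRE, which contains the short one, was in 3 of 61 (4.92%) against 3.42%. GGGCGG, an SP1 site, was in 57.4% against 65.8%, GCGCATGCG, an NRF1 site, in 1.64% against 3.55%, and AAGATGGCG, a YY1 site, in 4.92% against 4.20%. These matches are letters in a window and not binding sites.

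Levels differed widely among the members. The mean over the 28 libraries was at least 1000 TPM for 38 genes, 100 to 1000 TPM for 35, and 1 to 100 TPM for 4, with a median of 994 TPM. Of the 100 highest genes by mean TPM, 34 were members. Rplp0, the stalk protein that anchors P1 and P2 to the large subunit, led with 5049 TPM and was the fourth of all genes. Rpl19 had a mean of 2869 TPM and Rpl41 one of 2688 TPM.

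Most canonical genes with low values had more than 1 locus of the same symbol in the table. Of 76 canonical ribosomal protein genes that were listed, 6 had a mean under 2 TPM, and 5 of these 6 had several loci, against 10 of the other 70. Rps6, the substrate of S6 kinase, was at 1.34 TPM with 2 loci on chromosome 5, Rplp2 at 1.02 TPM with 2 loci on chromosome 1, and Rpl7a at 1.55 TPM with 4 loci. Rps9 and Rps19 missed the minimum, with 0.759 and 0.334 TPM and 2 loci each. All of these are core proteins of the ribosome. Whether reads shared between copies had been dropped from these genes was not tested. The Rpl8 entry kept, at 50.7 TPM, lies on chromosome 3 and spans only its transcript length of 830 bases, as a copy without introns does. The Rpl8 loci on chromosome 7, which span more than their transcript length of 814 bases, were at 0.526 and 0.0783 TPM. All Rpl8 results are those of the chromosome 3 entry, and the locus of origin of its reads was not tested.

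Rpl22, which has 1 locus in the table, was listed at 0 in all 28 libraries. Its paralog Rpl22l1, which can take its place in the large subunit, had a mean of 563 TPM, from 442 to 704 TPM. The other members left out were Rps4y2, listed at 0 in every library, Rpl39l at 0.00371 TPM, Rpl3l, a striated muscle paralog of Rpl3, at 0.280 TPM, and Rps9l1, whose entries repeat the loci and values of Rps9. RefSeq named 898 pseudogenes after the 84 symbols, with a median of 11 for a canonical gene and 36 for Rps2. Across the 76 canonical genes the number of named pseudogenes and the mean TPM had a Spearman rho of −0.003, and the number of loci and the mean TPM one of −0.44. The points share the same 28 libraries.

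Together the 77 genes supplied 7.52% to 10.4% of all rat TPM, with the smallest shares in WT after 16 h of FSK and the largest in Med14 S983A after 16 h of FSK. In WT the shares of the 2 replicates were 8.69% and 9.23% at CON, 9.02% and 9.26% at 1 h Ex-4, 8.50% and 8.25% at 8 h Ex-4, and 8.10% and 7.62% at 16 h Ex-4. After FSK they were 9.02% and 9.19% at 1 h, 8.24% and 8.15% at 8 h, and 7.75% and 7.52% at 16 h. Every WT library at 8 or 16 h lay below both CON libraries.

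In Med14 S983A the shares were 9.67% and 9.93% at CON, 9.32% and 9.97% at 1 h Ex-4, 8.56% and 8.64% at 8 h Ex-4, and 9.95% and 10.2% at 16 h Ex-4. After FSK they were 9.77% and 9.50% at 1 h, 7.89% and 8.15% at 8 h, and 10.2% and 10.4% at 16 h. The 8 h libraries lay below both CON libraries and the 16 h libraries lay above both.

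**Figure D1:**
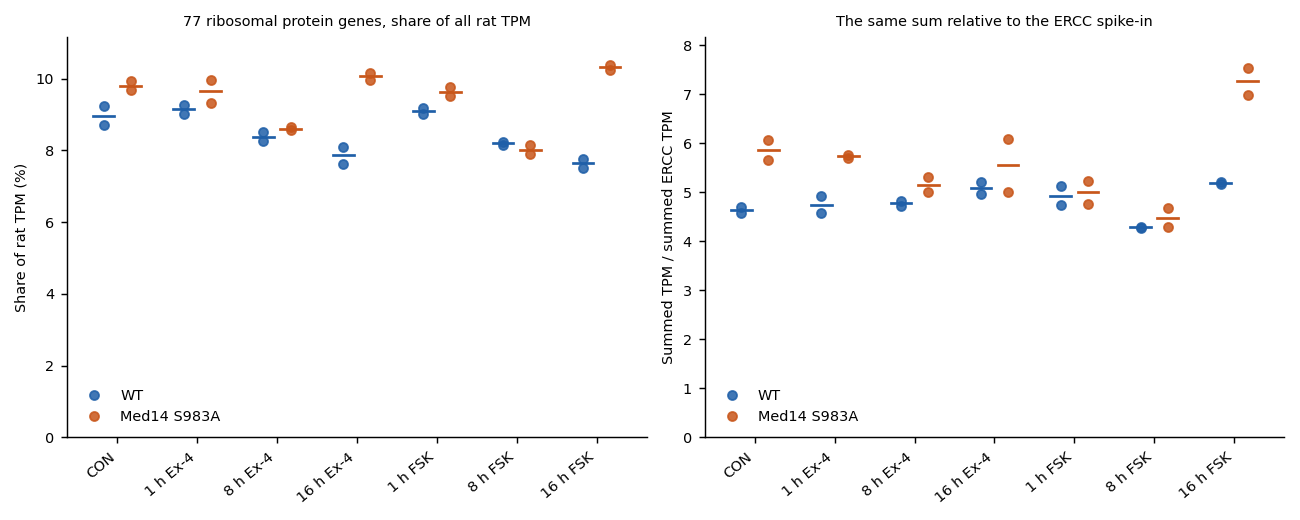
Summed level of the 77 genes in each of the 28 libraries (points, with the mean of 2 as a line), as a share of all rat TPM in percent on the left and divided by the summed ERCC TPM on the right. WT and Med14 S983A separate at 16 h of FSK on both scales, at means of 7.63% and 10.3% of rat TPM and at 5.19 and 7.27 per ERCC TPM.

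A share is relative to the other transcripts, and the same sum was therefore divided by the summed TPM of the ERCC sequences, which had been added to the RNA before library construction and do not count cells. On that scale WT CON was 4.65 ± 0.08 (SD, n = 2), WT 16 h Ex-4 5.09 ± 0.18 and WT 16 h FSK 5.19 ± 0.03. Med14 S983A CON was 5.85 ± 0.29, 8 h FSK 4.48 ± 0.26 and 16 h FSK 7.27 ± 0.39. The 16 h fall in WT was thus seen as a share of TPM and not against the spike-in, where both 16 h means lay above CON. At 8 h the sums per ERCC TPM in WT were 4.73 and 4.83 with Ex-4, above both CON libraries at 4.70 and 4.59, and 4.28 and 4.30 with FSK, below both. The low point at 8 h and the high point at 16 h of FSK in Med14 S983A were seen on both scales.

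Each gene was tested in a limma fit of log2(TPM + 1) over all 28 libraries, and values below are differences on that scale. The number in brackets after a count is the share of the 10275 tested genes that passed in the same direction. At 1 h few members moved in either genotype. In WT, 3 rose (5.10%) and 0 fell (20.1%) after Ex-4, and 2 rose (6.91%) and 0 fell (37.3%) after FSK. In Med14 S983A, 0 rose (6.81%) and 2 fell (19.4%) after Ex-4, and 1 rose (9.0%) and 4 fell (43.4%) after FSK. Rpl31, a large subunit protein near the exit of the peptide tunnel, rose after both agents in WT, by 0.13 ± 0.04 (SE) with Ex-4 (adjusted p = 0.0207) and by 0.14 ± 0.04 with FSK (adjusted p = 0.00799). Rpl36 and Rps25 rose by 0.13 and 0.10 with Ex-4, and Rps27 by 0.12 with FSK. The 3 rises with Ex-4 became 1 without WT CON replicate 1 and 0 without WT 1 h Ex-4 replicate 2, and the 2 with FSK became 1 without WT CON replicate 1 or either WT 1 h FSK library. The 2 falls with Ex-4 in Med14 S983A became 11 and 0 without CON replicates 1 and 2 and 1 without either 1 h Ex-4 library. The 4 falls with FSK became 9 and 1 without CON replicates 1 and 2 and 0 without 1 h FSK replicate 2. For the other scalings the bracket gives the number of the 10275 genes that passed in the same direction. After centring 35 members rose at 1 h FSK in WT (2044) and 13 in Med14 S983A (2701), the latter a smaller share than over all tested genes. With ERCC scaling 0 members rose or fell at 1 h in WT (324 and 717 with Ex-4, 562 and 1434 with FSK). After 1 h of FSK in Med14 S983A 65 members fell (7028), with a median of −0.25 against −0.05 on the TPM scale. The ERCC-scaled median over all genes was −0.30.

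**Figure D2:**
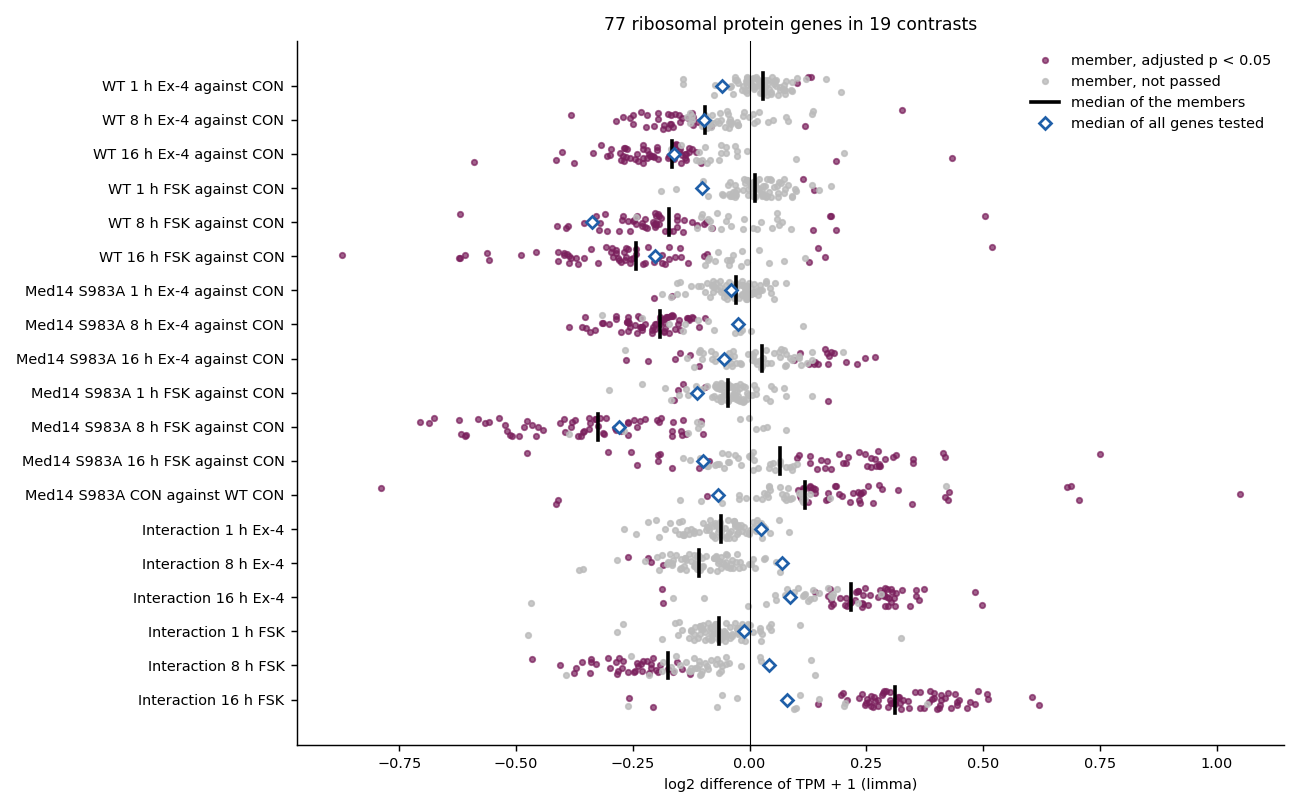
Log2 difference of TPM + 1 of each of the 77 genes (points) in 12 treatments against CON, the genotypes at CON and 6 interactions, with the median of the members (bar) and of all 10275 tested genes (diamond). Purple points passed an adjusted p of 0.05, and at 16 h of FSK the interaction has 64 of 77 above zero at that threshold.

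In WT most members that passed at 8 and 16 h fell on the TPM scale. The members' median lay close to that of all genes except at 8 h FSK, where it fell less. After 8 h of Ex-4, 2 rose (17.4%) and 31 fell (41.8%), with a median of −0.09 against −0.10 over all genes. After 16 h of Ex-4, 2 rose (16.3%) and 55 fell (52.4%), and the medians were −0.17 and −0.16. After 8 h of FSK, 5 rose (21.4%) and 49 fell (63.1%), with a median of −0.17 against −0.34 over all genes. After 16 h of FSK, 4 rose (25.6%) and 56 fell (54.9%), with medians of −0.24 and −0.20. The 2 rises at 8 h Ex-4 became 1 without WT CON replicate 1 or either WT 8 h Ex-4 library. The 31 falls became 13 without WT CON replicate 2 or without WT 8 h Ex-4 replicate 2, and the 55 at 16 h Ex-4 became 36 without WT CON replicate 2 and 35 without WT 16 h Ex-4 replicate 2. The 4 that rose at 16 h FSK became 2 without WT CON replicate 1 or 16 h FSK replicate 1.

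Changes above 1.5-fold were rare. One member fell by that much at 16 h Ex-4 (8.28% of tested genes), 1 at 8 h FSK (34.8%) and 4 at 16 h FSK (24.1%), and none rose. After centring the falls past 1.5-fold were 0 (407), 0 (1848) and 1 (1481), and with ERCC scaling 0 (286), 1 (3488) and 0 (1191). In each, 1 member rose by that much (665, 1930 and 1723 after centring, 949 and 2210 with ERCC scaling), except at 8 h FSK with ERCC scaling. The 1 call at 16 h Ex-4, Rps18, was lost without WT CON replicate 2 or without WT 16 h Ex-4 replicate 2. The counts in WT changed with the scaling of the libraries. With each library centred on its median gene, 9 members rose (3487) and 4 fell (2584) at 16 h Ex-4. At 16 h FSK 17 rose (4312) and 12 fell (3761). With ERCC scaling 16 rose (3521) and 1 fell (1034) at 16 h Ex-4, and 29 rose (4512) and 4 fell (2496) at 16 h FSK. Each of these 16 h counts was a smaller share than over all tested genes. At 8 h FSK 51 rose (4581) and 1 fell (3918) after centring, and 1 rose (1876) and 25 fell (5778) with ERCC scaling. At 8 h Ex-4 8 rose (3197) and 3 fell (2499) after centring, and 3 rose (1911) and 1 fell (1479) with ERCC scaling.

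**Figure D3:**
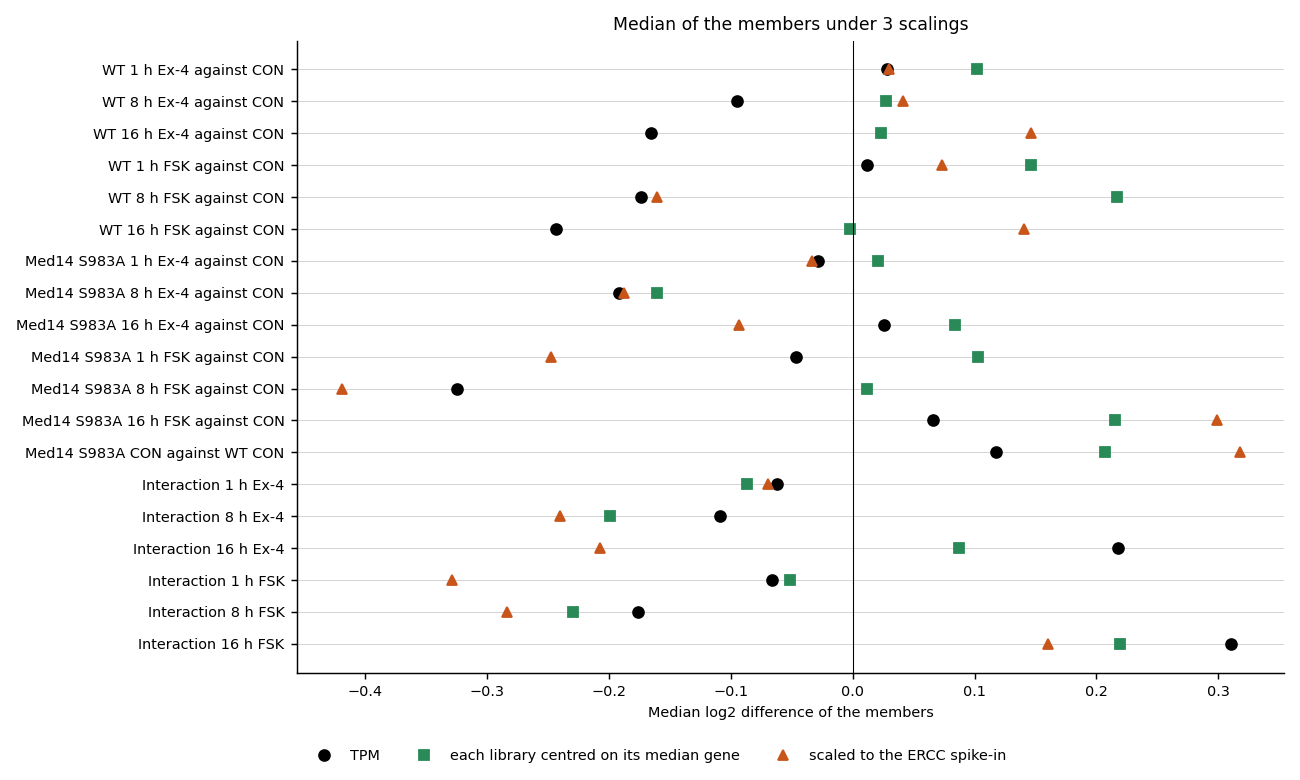
Median log2 difference of the 77 genes in 19 contrasts, from TPM (circles), from libraries centred on their median gene (squares) and from ERCC-scaled values (triangles). The 3 medians share a sign at CON between genotypes (0.12, 0.21 and 0.32) and in the 16 h FSK interaction (0.31, 0.22 and 0.16), but not for the WT treatments of 16 h.

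A few members kept their direction in WT under all 3 scalings. Here and below, the share of all tested genes that passed under all 3 scalings was not counted. That share cannot exceed the smallest of the shares under the 3 scalings. Rps18, a protein of the head of the small subunit, was the strongest to fall. Its TPM values in WT were 1917 and 2004 at CON, 1974 and 1955 at 1 h Ex-4, 1569 and 1443 at 8 h Ex-4, and 1341 and 1262 at 16 h Ex-4. After FSK they were 1956 and 1949 at 1 h, 1290 and 1259 at 8 h, and 1102 and 1039 at 16 h. The 8 and 16 h libraries lay below both CON libraries with either agent, and Rps18 had been picked for these falls. Rps18 fell by 0.59 ± 0.04 at 16 h Ex-4 (adjusted p = 2.89e-11) and by 0.87 ± 0.04 at 16 h FSK (adjusted p = 2.54e-15). With ERCC scaling the falls were 0.28 (adjusted p = 0.0108) and 0.49 (adjusted p = 1.03e-06) on the same log2 scale.

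Rpsa, the laminin receptor precursor that sits on the solvent side of the small subunit, moved alike. In WT its TPM was 1299 and 1311 at CON, 1155 and 1125 at 8 h Ex-4, 988 and 971 at 16 h Ex-4, 1003 and 984 at 8 h FSK, and 862 and 835 at 16 h FSK. It fell by 0.41 ± 0.03 at 16 h Ex-4 (adjusted p = 1.63e-10) and by 0.62 ± 0.03 at 16 h FSK (adjusted p = 1.35e-14). The 16 h FSK call was kept with ERCC scaling (adjusted p = 0.0199), and the 16 h Ex-4 call was not (adjusted p = 0.413).

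Rps24, in which mutations cause Diamond-Blackfan anaemia, and Rps23, a protein of the decoding centre, were the other members past 1.5-fold at 16 h FSK in WT. Rps24 was at 1106 and 1144 TPM at CON, 1045 and 1011 at 16 h Ex-4, 905 and 877 at 8 h FSK, and 728 and 733 at 16 h FSK, a fall of 0.62 ± 0.04 (adjusted p = 1.05e-12). Rps23 went from 1576 and 1713 TPM to 1122 and 1033 TPM at 16 h FSK, a fall of 0.61 (adjusted p = 1.5e-09). All 4 of these are small subunit genes, and the medians at 16 h FSK were −0.25 for the 30 small subunit members and −0.24 for the 47 large subunit members.

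Other members picked for their falls in WT were Rps12 at 16 h Ex-4, Rpl8 and Rpl34 at 8 h Ex-4, and Rpl3 at 8 h FSK. Rps12 fell by 0.40, from 936 and 1062 TPM to 782 and 728 TPM (adjusted p = 2.47e-06). Rpl3, which reaches towards the peptidyl transferase centre, fell by 0.41, from 1494 and 1535 TPM to 1141 and 1134 TPM (adjusted p = 2.81e-11). Rpl8, read from its entry without introns on chromosome 3, fell by 0.29 (adjusted p = 0.00046) and Rpl34 by 0.27 (adjusted p = 0.00109). After centring, the differences were −0.02 for Rpl3 at 8 h FSK (adjusted p = 0.64) and −0.15 for Rpl34 (adjusted p = 0.111), so neither call was kept. With ERCC scaling Rps12 was at −0.09 (adjusted p = 0.479), Rpl8 at −0.15 (adjusted p = 0.262) and Rpl34 at −0.14 (adjusted p = 0.282), so these calls were lost too, while Rpl3 was at −0.40 (adjusted p = 5.11e-05).

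Rpl36al rose in WT against the trend. It is a paralog of Rpl36a, a protein of the exit site for the transfer RNA. The TPM values of Rpl36al were 203 and 216 at CON, 203 and 215 at 1 h Ex-4, 262.5 and 263 at 8 h Ex-4, and 302 and 266 at 16 h Ex-4. After FSK they were 202 and 207 at 1 h, 301 and 295 at 8 h, and 310 and 292 at 16 h. All libraries of 8 and 16 h lay above both CON libraries, and Rpl36al had been picked for these rises.

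The rises of Rpl36al were 0.33 at 8 h Ex-4 (adjusted p = 8.79e-06), 0.43 at 16 h Ex-4 (adjusted p = 9.49e-08), 0.50 at 8 h FSK (adjusted p = 1.95e-09) and 0.52 ± 0.05 at 16 h FSK (adjusted p = 1.49e-09), and each was also called after centring and with ERCC scaling. Its parent Rpl36a went from 181 and 202 TPM at CON to 161 and 155 TPM at 16 h FSK, a fall of 0.28 (adjusted p = 0.000195). That call was lost after centring (−0.034, adjusted p = 0.676) and with ERCC scaling, where the sign turned (0.11, adjusted p = 0.317). At CON the ranges of paralog and parent nearly met, and at 16 h FSK they lay far apart. Reads shared between such close copies can be split by the counting, and this was not tested.

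Rpl10 also rose in WT. Rpl10, a late joining protein of the large subunit, was at 2073 and 2035 TPM at CON, 2340 and 2327 at 16 h Ex-4 and 2274 and 2319 at 16 h FSK, rises of 0.18 ± 0.04 (adjusted p = 0.00026) and 0.16 ± 0.04 (adjusted p = 0.000685). Rps27l, a paralog of Rps27 and a known target of p53, rose by 0.15 at 16 h FSK (adjusted p = 0.0331) from 101 and 110 TPM to 116 and 118 TPM. That call was lost without WT CON replicate 1 (adjusted p = 0.301), WT 16 h FSK replicate 1 (adjusted p = 0.0657) or WT 16 h FSK replicate 2 (adjusted p = 0.122).

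Ex-4 and FSK were compared directly in WT. At 8 h, Ex-4 exceeded FSK for 18 members (58.6%) and FSK exceeded Ex-4 for 5 (18.3%), and at 16 h the counts were 21 (37.6%) and 8 (30.8%). The medians were 0.04 and 0.07. Rps18 was higher with Ex-4 by 0.24 at 8 h (adjusted p = 3.07e-05) and by 0.28 at 16 h (adjusted p = 4.43e-06). Under all 3 scalings no member passed in the same direction at 8 h, while at 16 h Rpl29, Rps18 and Rps24 were higher, and Rpl22l1, Rpl28, Rps20 and Rps27l were among those lower. After centring Ex-4 exceeded FSK for 0 members (3602) and FSK exceeded Ex-4 for 60 (4210) at 8 h, with 10 (3421) and 12 (3808) at 16 h. ERCC scaling gave 31 (6326) and 0 (1000) at 8 h, and 3 (2546) and 5 (2885) at 16 h.

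**Figure D4:**
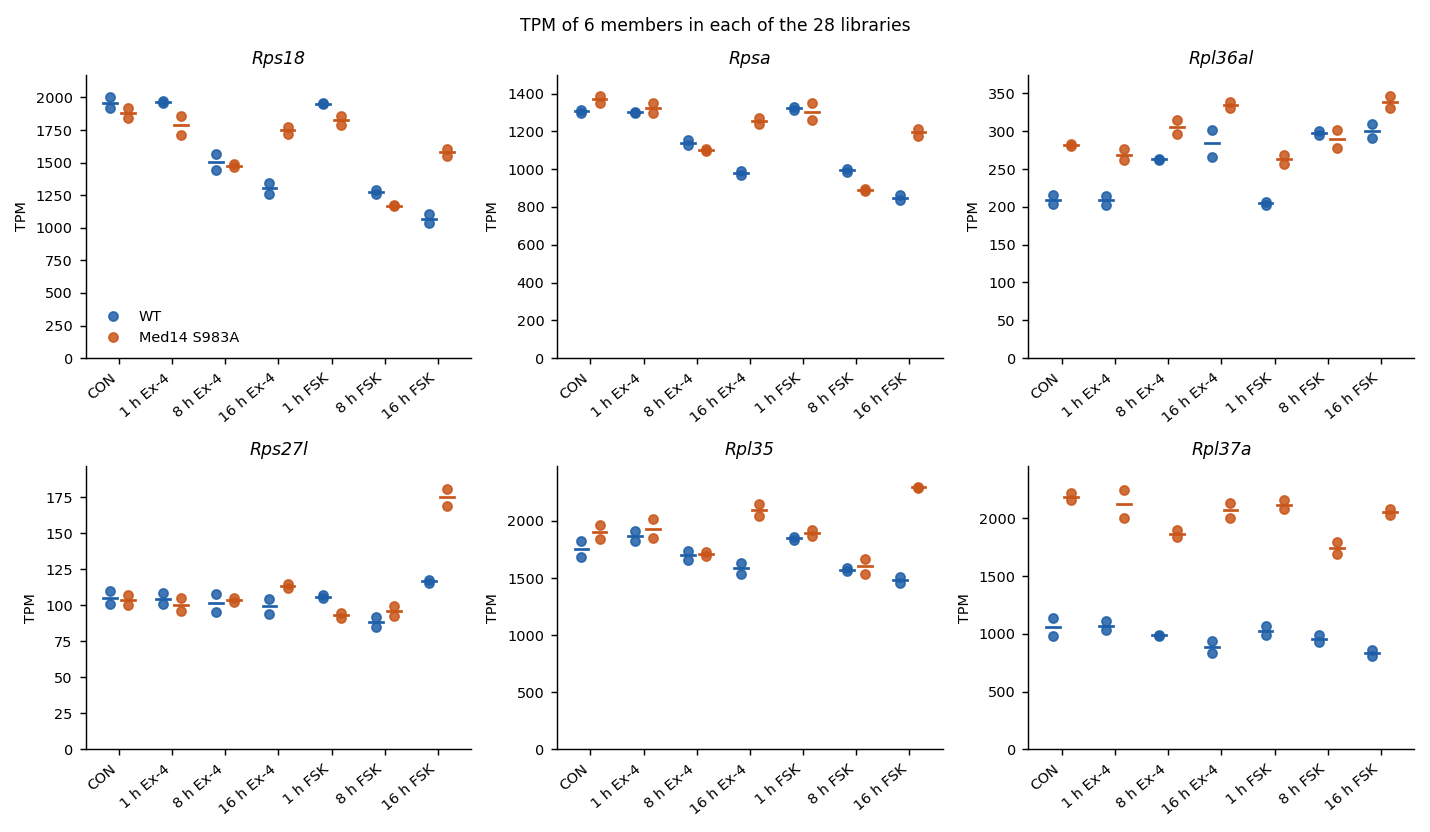
TPM of Rps18, Rpsa, Rpl36al, Rps27l, Rpl35 and Rpl37a in each of the 28 libraries (points, with the mean of 2 as a line), WT in blue and Med14 S983A in orange. Rps18 is at 1102 and 1039 TPM in WT and at 1549 and 1608 TPM in Med14 S983A after 16 h of FSK, and Rps27l at 169 and 181 TPM in the latter.

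At CON, 41 members stood above WT (25.8%) and 4 below it (40.4%) in Med14 S983A, with a median of 0.12 for the members and −0.07 over all genes. The count of 41 became 26 without WT CON replicate 1. Of the 11 beta cell markers 5 were higher and 3 lower, with summed levels of 46587 and 45745 TPM in WT and 76471 and 84992 TPM in Med14 S983A, and the part of these markers in the members’ difference was not tested. After centring 57 members were higher (3618) and 3 lower (3139), and with ERCC scaling 65 were higher (3614) and 2 lower (1698). The same 41 were higher under all 3 scalings, and the medians were 0.21 and 0.32 with the latter 2. Over all tested genes the share higher under all 3 was not counted and cannot exceed 25.8%. The 41 include Rps6, which is near the minimum at a mean of 1.34 TPM. By subunit, 26 of 47 large subunit and 15 of 30 small subunit members were higher.

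Past 1.5-fold, 4 members were higher (8.29%) and 1 lower (11.1%) at CON. Rpl37a, a zinc finger protein of the large subunit, was at 984 and 1136 TPM in WT and at 2157 and 2220 TPM in Med14 S983A, a difference of 1.05 ± 0.06 (adjusted p = 1.76e-13). Rps14, the gene lost in 5q- syndrome, was at 1223 and 1337 against 2182 and 1991 TPM (0.70 ± 0.06, adjusted p = 1.01e-10). Rps15a was at 456 and 530 against 780 and 797 TPM (0.68, adjusted p = 4.84e-10).

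Rpl15 was the member past 1.5-fold on the low side, at 551 and 592 TPM in WT and 321 and 340 TPM in Med14 S983A (−0.79 ± 0.04, adjusted p = 1.09e-14). Rpl6 differed by −0.42 (adjusted p = 8.79e-09) and Rplp0 by −0.41 (adjusted p = 1.18e-10), the latter with 6021 and 6010 against 4446 and 4608 TPM. With ERCC scaling the Rpl6 call was kept (−0.22, adjusted p = 0.0451) and the Rplp0 call was lost (−0.21, adjusted p = 0.0575). The genotypes did not overlap in TPM for any of these genes. They were named for the size of that difference, so this adds nothing to the tests.

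Neighbouring genes differed too at some of these places. The 25 tested genes on each side of Rpl37a on chromosome 9 (rn6) had a median difference of 0.82 at CON, those around Rpl15 on chromosome 15 one of −0.69, and those around Rpl6 and Rplp0 on chromosome 12 −0.63 and −0.64. Around Rps14 on chromosome 18 and Rps15a on chromosome 1 the medians were −0.16 and −0.06. Only 5 of the 77 members had neighbours whose median was beyond 0.3 in size. Among the other 72, 39 were higher and 1 lower, with a median of 0.12. What part the position had in these differences was not tested.

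In Med14 S983A the members fell at 8 h and stood near or above CON at 16 h. After 8 h of Ex-4, 0 rose (22.2%) and 64 fell (28.4%), and the median was −0.19 for the members and −0.03 over all genes. This fall was seen with centring, where 40 fell (2522) and 0 rose (2813), and with ERCC scaling, where 22 fell (1582) and 0 rose (1287). Under all 3 scalings 21 members fell. They included Rpl5 at −0.24 (adjusted p = 1.9e-06), Rpsa at −0.31 (adjusted p = 4.11e-08) and Rps18 at −0.35 (adjusted p = 4.7e-07). After centring the median of the members was −0.16, the lowest of the 12 treatments.

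After 8 h of FSK in Med14 S983A, 0 members rose (26.7%) and 65 fell (57.9%), with a median of −0.32 against −0.28 over all genes. Of the members 7 fell more than 1.5-fold (34.5%), namely Rpl36a, Rpl39, Rpl8 (the chromosome 3 entry), Rps18, Rps24, Rps4x and Rpsa. With ERCC scaling 68 fell (5984) and 0 rose (2012), whereas after centring 18 fell (4112) and 19 rose (4676). The 7 past 1.5-fold were 16 with ERCC scaling (3957) and 0 after centring (2207). Of the 11 beta cell markers 10 fell and 1 rose, with a median of −0.89. Rps18 went from 1844 and 1922 TPM to 1174 and 1165 TPM (−0.69, adjusted p = 2.13e-13). Rps24 went from 1112 and 1188 TPM to 692 and 716 TPM. Rpl36al, at 283 and 281 TPM in CON, was at 278 and 302 TPM and did not pass on the TPM scale (0.04, adjusted p = 0.499). Centring shifts all genes of a comparison equally and raised the members' median here from −0.32 to 0.012, so that missing call depends on the scaling.

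After 16 h of Ex-4 in Med14 S983A, 16 rose (24.6%) and 6 fell (37.3%), with a median of 0.03. The 6 became 10 without Med14 S983A CON replicate 1, 2 without its replicate 2 and 3 without Med14 S983A 16 h Ex-4 replicate 1. After centring 29 rose (3256) and 1 fell (3144), and with ERCC scaling 0 rose (1098) and 13 fell (4094). The 2 libraries differed on the ERCC scale, with sums of 5.01 and 6.09 per ERCC TPM. After 16 h of FSK 32 rose (32.1%) and 10 fell (46.8%), with a median of 0.07 against −0.10 over all genes, and 1 rose more than 1.5-fold (12.2%). Here the other scalings gave more rises, 49 (4390) with 1 fall (3785) after centring and 52 (4234) with 1 fall (2867) with ERCC scaling. The same 32 rose under all 3. The beta cell markers moved in this comparison, as 9 of 11 fell past 1.5-fold and 0 rose, with a median of −1.53 and summed levels of 51354 and 52143 TPM against 76471 and 84992 TPM at CON. In the same comparison Gcg rose by 3.88, and the part of these markers in the members' rise was not tested.

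The 1 member past 1.5-fold was Rps27l. In Med14 S983A its TPM was 107 and 100 at CON, 96 and 105 at 1 h Ex-4, 102 and 105 at 8 h Ex-4, and 115 and 112 at 16 h Ex-4. After FSK it was 94.8 and 91.5 at 1 h, 92.4 and 99.6 at 8 h, and 169 and 181 at 16 h. Only the 16 h FSK libraries stood clear of the rest, and the rise over CON was 0.75 ± 0.06 (adjusted p = 3.64e-11). Its parent Rps27 was at 2102 and 2305 TPM at CON and 2340 and 2356 TPM at 16 h FSK. This difference of 0.09 did not pass on the TPM scale (adjusted p = 0.0658). On the centred and ERCC scales the members' median in this comparison was 0.22 and 0.30 against 0.07, and Rps27 was shifted upward with it.

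The difference between genotypes in the response was tested as an interaction, the Med14 S983A change minus the WT change, so all 4 CON libraries enter each value. At 1 h, 0 members passed in either direction after Ex-4 (0.876% of tested genes positive, 0.672% negative) or FSK (2.91% and 2.93%). In limma 7 had an unadjusted p under 0.05 after each agent. The share of all tested genes under that limit was not counted, so the 7 are not set against a background. With ERCC scaling 17 were negative after 1 h of FSK (1187). Without Med14 S983A CON replicate 1, 2 were negative after Ex-4 and 3 after FSK. At 8 h of Ex-4, 0 were positive (14.2%) and 4 negative (4.42%), with a median of −0.11 against 0.07 over all genes. That count ranged from 0 to 15 when 1 library was left out, with 15 without WT CON replicate 2, 11 without Med14 S983A CON replicate 1 and 0 without Med14 S983A CON replicate 2. It was 2 without WT CON replicate 1, WT 8 h Ex-4 replicate 2 or Med14 S983A 8 h Ex-4 replicate 1. Centring gave 15 negative (997) and 0 positive (804), and ERCC scaling 0 of either (243 negative and 185 positive).

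At 8 h of FSK, 0 members were positive (30.3%) and 38 negative (23.3%), with a median of −0.18 against 0.04 over all genes. Centring gave 41 negative (2934) and ERCC scaling 28 negative (2054), with 0 positive in both (2684 and 1164). Under all 3 scalings 26 were negative. The count of 38 became 24 without WT CON replicate 1. Rpl36al had an interaction of −0.47 ± 0.07 (adjusted p = 9.22e-06), with a rise in WT and no call in Med14 S983A on the TPM scale. Rpl39, a small protein of the exit tunnel, had −0.41 (adjusted p = 0.00751) and Rps4x −0.38 (adjusted p = 0.000807).

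At 16 h of FSK the sign turned. Here 64 members were positive (35.9%) and 2 negative (22.1%), with a median of 0.31 against 0.08 over all genes, and 2 were positive by more than 1.5-fold (10.6%). Leaving out 1 library, WT CON replicate 2, WT 16 h FSK replicate 2, Med14 S983A CON replicate 2 or Med14 S983A 16 h FSK replicate 2, reduced these 2 to 1, and after centring and with ERCC scaling they were 0. The 11 beta cell markers were all negative in this interaction, with a median of −0.87. Centring gave 41 positive members (2877) and 2 negative (3085), and ERCC scaling 7 positive (1430) and 2 negative (2223). Both counts with ERCC scaling were smaller shares than over all tested genes. The 7 were Rpl27, Rpl3, Rpl32, Rpl35, Rps18, Rps23 and Rps27l, and they were positive under all 3 scalings, as Rpl10 and Rpl36al were negative. Across both large subunit (40 of 47) and small subunit (24 of 30) most members were positive.

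The 2 past 1.5-fold were Rps18 at 0.62 ± 0.06 (adjusted p = 8.58e-09) and Rps27l at 0.60 ± 0.09 (adjusted p = 2.14e-06). Rps18 was at 1844 and 1922 TPM in Med14 S983A at CON and at 1549 and 1608 TPM at 16 h FSK, a smaller fall than in WT. Rpl35, a protein at the tunnel exit that docks the signal recognition particle, followed with 0.51 ± 0.07 (adjusted p = 7.83e-07). In WT Rpl35 went from 1688 and 1825 TPM at CON to 1506 and 1461 TPM, and in Med14 S983A from 1845 and 1962 TPM to 2300 and 2286 TPM. With ERCC scaling Rpl35 had an interaction of 0.36 (adjusted p = 0.0248).

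At 16 h of Ex-4, 48 members were positive (29.1%) and 2 negative (12.9%), with a median of 0.22 against 0.09 over all genes. Centring gave 5 positive (1655) and 3 negative (2592), and ERCC scaling 0 positive (308) and 17 negative (4763). The 17 were a smaller share than over all tested genes. Rps18 (0.48, adjusted p = 1.24e-06), Rps3a (0.37, adjusted p = 0.000288) and Rps3 (0.36, adjusted p = 0.000639) were the largest among members over 10 TPM, and with ERCC scaling they were 0.05, −0.06 and −0.07. Rpl36 and Rpl36al were negative under all 3 scalings, at −0.19 with adjusted p = 0.0221 and 0.044, and the count of 2 was 0 or 1 when any of 6 of the 8 libraries involved was left out, with 0 without WT 16 h Ex-4 replicate 1 or Med14 S983A CON replicate 2.

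The ribosomal stalk recruits elongation factors. At CON Rplp0 was lower in Med14 S983A, except with ERCC scaling as given above, Rplp1 higher, with 1069 and 1155 TPM in WT and 1421 and 1566 TPM in Med14 S983A (0.42 ± 0.06, adjusted p = 1.64e-06), and Rplp2 was too low to judge, at 0.419 to 1.78 TPM. Rpl5 and Rpl11 bind 5S rRNA and, when free, the p53 inhibitor Mdm2. Rpl5 fell by 0.46 at 16 h FSK in WT (adjusted p = 5.58e-12), from 1191 and 1240 TPM to 897 and 872 TPM, and Rpl11 fell by 0.09 (adjusted p = 0.0343), from 685 and 722 TPM to 667 and 653 TPM. Under the other scalings Rpl11 rose in WT, by 0.15 after centring (adjusted p = 0.0123) and by 0.29 with ERCC scaling (adjusted p = 0.00361). The Rpl5 fall in WT was kept after centring (−0.22, adjusted p = 0.000254) and lost with ERCC scaling (−0.074, adjusted p = 0.494). In Med14 S983A at 16 h FSK Rpl11 rose by 0.21 (adjusted p = 2.83e-05), also under both other scalings, and Rpl5 fell by 0.17 (adjusted p = 9.79e-05), a call lost after centring (−0.016, adjusted p = 0.759) and with ERCC scaling (0.068, adjusted p = 0.53).

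Rps27a, made as a fusion with ubiquitin, was at 833 and 935 TPM in WT CON and 928 and 890 TPM at 16 h FSK, and it rose in Med14 S983A at 16 h FSK by 0.35 (adjusted p = 7.44e-07). Fau, a precursor of Rps30, and Rack1, a scaffold on the small subunit, were not members under the naming rule. At 8 h FSK in Med14 S983A both fell, Fau by 0.18 and Rack1 by 0.40. At 16 h FSK in Med14 S983A Fau rose by 0.17 (adjusted p = 0.00559), and Rack1 differed by 0.04 without passing. Rack1 fell by 0.27 in WT at 16 h FSK (adjusted p = 8.15e-08). All values of Fau and Rack1 are on the TPM scale, and the falls depend on the scaling. In WT at 16 h FSK the members' median was −0.24 on that scale, −0.0025 after centring and 0.14 with ERCC scaling. In Med14 S983A at 8 h FSK it was −0.32, 0.012 and −0.42.

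Whether a TOP start went with the size of the change was looked at without a test. At 16 h FSK in WT the median was −0.26 for the 22 members with a TOP start and −0.26 for the 39 matched members without it. In the 16 h FSK interaction the medians were 0.30 and 0.32, for 8 h Ex-4 in the mutant cells −0.22 and −0.20, and at CON between genotypes 0.13 and 0.11. Median levels were 1246 TPM with a TOP start and 958 TPM without.

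Genes of ribosome assembly were taken from a fixed list. This list and the pathway lists below were compared on the TPM scale alone. Of 44 tested ribosome assembly factors, 27 rose more than 1.5-fold after 16 h of FSK in Med14 S983A (12.2% of all tested genes), 40 rose at the adjusted p alone (32.1%) and 1 fell (46.8%), with a median of 0.68. At 8 h of FSK in the same cells 34 rose (26.7%) and 6 fell (57.9%), with a median of 0.45, when the ribosomal protein members had a median of −0.32. In WT the medians for assembly factors were −0.07 at 8 h FSK (11 rose and 19 fell), −0.11 at 16 h FSK (13 rose and 22 fell) and −0.29 at 16 h Ex-4 (0 rose and 38 fell). Over all tested genes the shares that rose and fell were 21.4% and 63.1%, 25.6% and 54.9%, and 16.3% and 52.4%, so the fall at 16 h FSK was not above the background. At 16 h Ex-4 in WT the median of all tested genes was −0.16 on the TPM scale, 0.027 after centring and 0.13 with ERCC scaling. The size of the assembly factors' fall there thus depends on the scaling. In the 16 h FSK interaction 41 of the 44 were positive (35.9%) and 1 negative (22.1%). The comparisons within a genotype share their CON libraries.

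Bop1, an assembly factor of the large subunit, was at 68.3 and 67.0 TPM at CON and 98.0 and 97.8 TPM at 16 h FSK in WT, and 60.7 and 63.0 TPM and then 153 and 148 TPM in Med14 S983A. Lyar, a nucleolar factor, rose most in WT at 8 h FSK, by 1.38 (adjusted p = 2.31e-17), and Nat10, an acetyltransferase of rRNA, and Wdr12, a partner of Bop1, fell by 0.88 and 0.88.

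**Figure D5:**
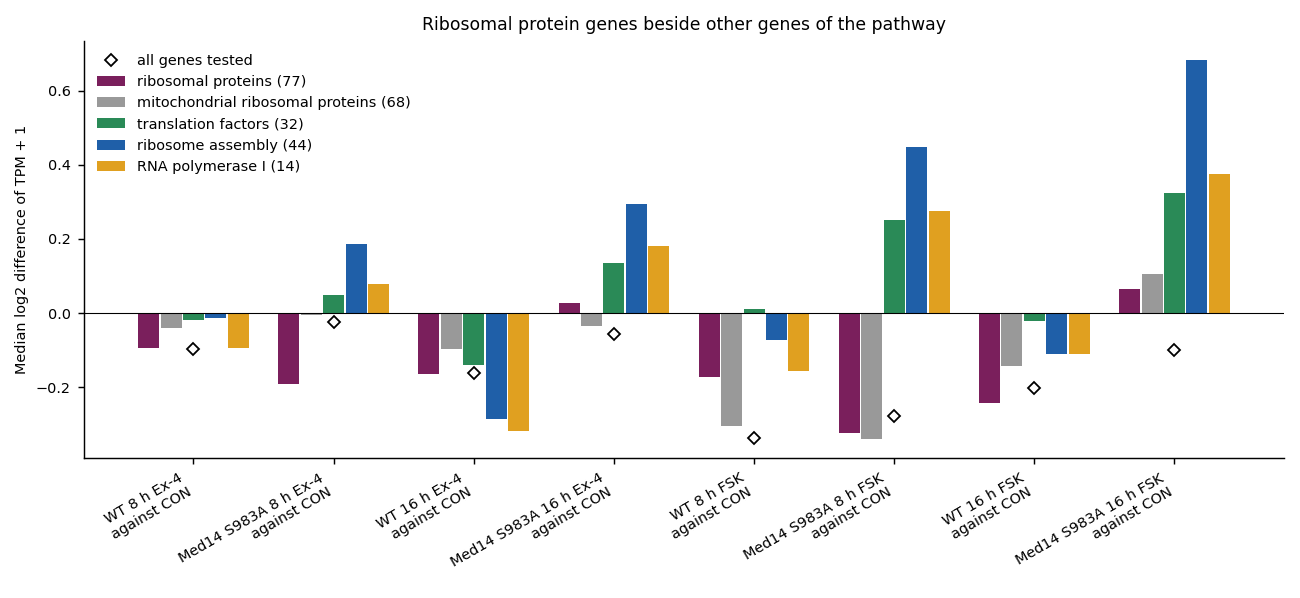
Median log2 difference of TPM + 1 in 8 treatments against CON for the 77 ribosomal protein genes, 68 mitochondrial ribosomal protein genes, 32 translation factors, 44 ribosome assembly factors and 14 RNA polymerase I genes (bars), with the median of all tested genes (diamonds). Ribosome assembly stands highest in Med14 S983A, at 0.45 after 8 h and 0.68 after 16 h of FSK, beside −0.32 and 0.07 for the ribosomal proteins.

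RNA polymerase I transcribes rRNA. Of its 14 tested genes 12 rose and 1 fell in Med14 S983A at 16 h FSK, with a median of 0.38, against 32.1% and 46.8% of all tested genes. In WT 2 rose and 7 fell with a median of −0.11, beside 25.6% and 54.9% and a median of −0.20 over all genes. Ubtf, which opens rDNA for transcription, went from 77.6 and 77.0 TPM to 31.6 and 33.2 TPM in WT at 16 h FSK, a fall of 1.23 (adjusted p = 1.75e-18), and it fell by 0.75 in Med14 S983A (adjusted p = 4.36e-14). Polr1a, the largest subunit, fell in WT by 0.94 at 8 h FSK (adjusted p = 1.09e-12), and in Med14 S983A it rose by 0.48 at 16 h FSK (adjusted p = 3.32e-07).

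Among 32 translation factors 24 rose and 5 fell in Med14 S983A at 16 h FSK, with a median of 0.32, against 11 and 12 with a median of −0.02 in WT, and the shares over all genes are those just given. Eif6, which keeps free large subunits from joining, rose in both genotypes at 8 h FSK, from 247 and 245 to 490 and 492 TPM in WT and from 221 and 208 to 439 and 440 TPM in Med14 S983A. Of 28 growth regulators 5 rose and 20 fell in WT at 8 h FSK, near the 21.4% and 63.1% of all tested genes. Myc, a driver of ribosome production, was at 69.4 and 70.5 TPM at CON, 12.9 and 13.7 TPM at 8 h FSK and 36.5 and 37.8 TPM at 16 h FSK in WT, and at 55.5 and 56.5, 76.9 and 75.2, and 146 and 148 TPM in Med14 S983A. The mitochondrial ribosomal proteins had medians of −0.34 at 8 h FSK and 0.10 at 16 h FSK in Med14 S983A, next to −0.32 and 0.07 for the cytosolic members.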

How the data were processed

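Bulk RNA-seq of 28 INS-1 libraries was analysed, 2 in each of 14 groups taken from the sample labels. The authors aligned reads with STAR 2.5.3a to rn6 and quantified genes with HOMER 4.11.1, and their processing notes also name DESeq2 1.24.0. The deposited TPM values, with transcript lengths beside them, were used as the authors gave them. The deposited count table was used for its ERCC counts only. Fragments were recovered from TPM, length and ERCC counts. Of 138857 values under 1000 reads, 100% came out whole within 0.05 reads plus the rounding error of the TPM (23.6% by chance).

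For each symbol the transcript with the highest mean was kept and genes averaging 1 TPM or more were tested. log2(TPM + 1) was fitted with limma 3.58.1 in R 4.3.3 over all 28 libraries, with 14 residual degrees of freedom, and p-values were adjusted by Benjamini-Hochberg over 10275 genes. A log2(TPM + 1) difference understates the change of low genes. Libraries were also centred on their median gene or scaled to ERCC, and edgeR 4.0.16 and DESeq2 1.42.0 were run on recovered fragments. The fit was tested on simulated data.

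Named members were the listed paralogs, low canonical genes, stalk, 5S and ubiquitin-fusion genes, and in each comparison up to 3 of the largest rises and falls that passed with a mean of at least 10 TPM. Of each pathway list up to 2 rises and 2 falls at 16 h Ex-4 and 8 h FSK in WT were eligible. Members and lists were chosen with earlier results of these data known. Rps23, Rps15a and other members past 1.5-fold, and the Med14 S983A values of Bop1, Ubtf, Polr1a, Eif6 and Myc, were named after their values were seen. Results for a few genes are not reported here.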

Additional observations from a re-analysis of the deposited data

Results flagged for a closer look

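The 16 member and time combinations below had the largest differences between genotypes by the interaction test in limma (Med14 S983A change minus WT change, log2, adjusted over 10275 genes). They were up to 3 in each direction and comparison, among members that passed with a mean of at least 10 TPM. More members passed in each comparison, as counted above. At 8 h Ex-4 they were Rpl36 (−0.2596, adjusted p = 0.00602), Rps27 (−0.2176, adjusted p = 0.0198) and Rpl36al (−0.2106, adjusted p = 0.0459). Each of these calls was lost when at least 1 library was left out. At 16 h Ex-4 they were Rps18 (0.4832, adjusted p = 1.24e-06), Rps3a (0.3743, adjusted p = 0.000288), Rps3 (0.3635, adjusted p = 0.000639), Rpl36 (−0.1873, adjusted p = 0.0221) and Rpl36al (−0.1861, adjusted p = 0.044).

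At 8 h FSK they were Rpl36al (−0.4665, adjusted p = 9.22e-06), Rpl39 (−0.4064, adjusted p = 0.00751) and Rps4x (−0.3759, adjusted p = 0.000807). At 16 h FSK they were Rps18 (0.6186, adjusted p = 8.58e-09), Rps27l (0.6045, adjusted p = 2.14e-06), Rpl35 (0.5112, adjusted p = 7.83e-07), Rpl36al (−0.2584, adjusted p = 0.0041) and Rpl10 (−0.207, adjusted p = 0.00283).

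Second loci of 4 members, which entered only the sum over transcripts, also had values in the TPM table. Their means over the 28 libraries were 24.03 TPM for Rpl37 on chromosome 10, 10.9 TPM for Rpl39 on chromosome 18, 16.2 TPM for Rps13 on chromosome 3 and 62.5 TPM for Rps14 on chromosome 5. Each of these second loci spans only its transcript length, as a copy without introns does. Whether the reads there came from the main locus of the same symbol was not tested.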

How the results depend on the processing

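The median log2 difference of the 77 members in each of 19 contrasts was recomputed under each alternative, and a median was taken as moved when it changed by more than 0.0404, the replicate SD. A pseudocount of 0.1, no filter, a filter at 5 TPM, canonical members alone, members over 100 TPM, the sum over transcripts and a fit on the libraries of the contrast moved none of the 19 medians. With libraries centred on their median gene the median was 0.10 for WT 1 h Ex-4, 0.027 for WT 8 h Ex-4, 0.023 for WT 16 h Ex-4, 0.15 for WT 1 h FSK, 0.22 for WT 8 h FSK, −0.0025 for WT 16 h FSK, 0.021 for Med14 S983A 1 h Ex-4, 0.084 for Med14 S983A 16 h Ex-4, 0.10 for Med14 S983A 1 h FSK, 0.012 for Med14 S983A 8 h FSK, 0.22 for Med14 S983A 16 h FSK, 0.21 for genotype at CON, −0.20 for interaction 8 h Ex-4, 0.088 for interaction 16 h Ex-4, −0.23 for interaction 8 h FSK and 0.22 for interaction 16 h FSK. With edgeR and TMM on recovered fragments the median was 0.10 for WT 1 h Ex-4, −0.011 for WT 8 h Ex-4, −0.016 for WT 16 h Ex-4, 0.14 for WT 1 h FSK, 0.15 for WT 8 h FSK, −0.060 for WT 16 h FSK, 0.071 for Med14 S983A 16 h Ex-4, 0.081 for Med14 S983A 1 h FSK, −0.055 for Med14 S983A 8 h FSK, 0.15 for Med14 S983A 16 h FSK, 0.21 for genotype at CON, −0.18 for interaction 8 h Ex-4, 0.12 for interaction 16 h Ex-4, −0.23 for interaction 8 h FSK and 0.21 for interaction 16 h FSK. With DESeq2 on recovered fragments the median was 0.11 for WT 1 h Ex-4, 0.0091 for WT 8 h Ex-4, 0.010 for WT 16 h Ex-4, 0.15 for WT 1 h FSK, 0.18 for WT 8 h FSK, −0.028 for WT 16 h FSK, 0.044 for Med14 S983A 1 h Ex-4, 0.088 for Med14 S983A 16 h Ex-4, 0.12 for Med14 S983A 1 h FSK, −0.017 for Med14 S983A 8 h FSK, 0.19 for Med14 S983A 16 h FSK, 0.19 for genotype at CON, −0.19 for interaction 8 h Ex-4, 0.11 for interaction 16 h Ex-4, −0.23 for interaction 8 h FSK and 0.22 for interaction 16 h FSK. With ERCC scaling the median was 0.041 for WT 8 h Ex-4, 0.15 for WT 16 h Ex-4, 0.073 for WT 1 h FSK, 0.14 for WT 16 h FSK, −0.093 for Med14 S983A 16 h Ex-4, −0.25 for Med14 S983A 1 h FSK, −0.42 for Med14 S983A 8 h FSK, 0.30 for Med14 S983A 16 h FSK, 0.32 for genotype at CON, −0.24 for interaction 8 h Ex-4, −0.21 for interaction 16 h Ex-4, −0.33 for interaction 1 h FSK, −0.28 for interaction 8 h FSK and 0.16 for interaction 16 h FSK. With DESeq2 and ERCC size factors the median was 0.057 for WT 8 h Ex-4, 0.17 for WT 16 h Ex-4, 0.084 for WT 1 h FSK, 0.16 for WT 16 h FSK, −0.079 for Med14 S983A 16 h Ex-4, −0.25 for Med14 S983A 1 h FSK, −0.42 for Med14 S983A 8 h FSK, 0.31 for Med14 S983A 16 h FSK, 0.33 for genotype at CON, −0.24 for interaction 8 h Ex-4, −0.21 for interaction 16 h Ex-4, −0.35 for interaction 1 h FSK, −0.30 for interaction 8 h FSK and 0.16 for interaction 16 h FSK. When 1 library was left out the median ranged from −0.022 to 0.077 for WT 1 h Ex-4, −0.15 to −0.056 for WT 8 h Ex-4, −0.24 to −0.12 for WT 16 h Ex-4, −0.026 to 0.062 for WT 1 h FSK, −0.21 to −0.12 for WT 8 h FSK, −0.30 to −0.18 for WT 16 h FSK, −0.081 to 0.021 for Med14 S983A 1 h Ex-4, −0.21 to −0.18 for Med14 S983A 8 h Ex-4, 0.030 to 0.057 for Med14 S983A 16 h Ex-4, −0.064 to −0.014 for Med14 S983A 1 h FSK, −0.38 to −0.30 for Med14 S983A 8 h FSK, 0.017 to 0.096 for Med14 S983A 16 h FSK, 0.069 to 0.17 for genotype at CON, −0.11 to −0.012 for interaction 1 h Ex-4, −0.13 to −0.050 for interaction 8 h Ex-4, 0.17 to 0.27 for interaction 16 h Ex-4, −0.11 to −0.012 for interaction 1 h FSK, −0.22 to −0.12 for interaction 8 h FSK and 0.26 to 0.35 for interaction 16 h FSK. Where counts of members passed changed by over 1.5 times, limma, edgeR and DESeq2 gave 3, 10 and 17 higher for WT 1 h Ex-4, 2, 7 and 7 higher for WT 8 h Ex-4, 31, 8 and 5 lower for WT 8 h Ex-4, 2, 5 and 8 higher for WT 16 h Ex-4, 55, 11 and 5 lower for WT 16 h Ex-4, 2, 43 and 43 higher for WT 1 h FSK, 5, 45 and 50 higher for WT 8 h FSK, 49, 2 and 1 lower for WT 8 h FSK, 4, 12 and 15 higher for WT 16 h FSK, 56, 23 and 17 lower for WT 16 h FSK, 0, 0 and 1 higher for Med14 S983A 1 h Ex-4, 2, 0 and 0 lower for Med14 S983A 1 h Ex-4, 16, 28 and 31 higher for Med14 S983A 16 h Ex-4, 6, 2 and 1 lower for Med14 S983A 16 h Ex-4, 1, 13 and 32 higher for Med14 S983A 1 h FSK, 4, 0 and 0 lower for Med14 S983A 1 h FSK, 0, 14 and 16 higher for Med14 S983A 8 h FSK, 65, 25 and 22 lower for Med14 S983A 8 h FSK, 10, 5 and 3 lower for Med14 S983A 16 h FSK, 4, 21 and 18 lower for interaction 8 h Ex-4 and 48, 18 and 16 higher for interaction 16 h Ex-4. For edgeR and DESeq2 the numbers of all tested genes that passed are not given. Their member counts thus do not show whether members passed more often than other genes. Rps3a and Rps3 in the 16 h Ex-4 interaction changed sign, to −0.059 and −0.070 with ERCC scaling. With DESeq2 and ERCC size factors they were −0.067 and −0.074, and the cause was not tested. Whether equal replicate numbers pair the libraries is not known. The correlation of deviations between groups ran from −0.239 to 0.236 over 16 contrasts, which with 2 libraries a group cannot settle it. With the replicate block the median was −0.24 for WT 16 h FSK and 0.31 for the 16 h FSK interaction, as without it. ERCC scaling with 1 library left out and the genotype comparison without members whose neighbouring genes differed were added after seeing the data, and the latter gave 39 higher and 1 lower of 72. With ERCC scaling and 1 library left out, the median for Med14 S983A 16 h Ex-4 ran from −0.21 to 0.049 and was positive without its 16 h Ex-4 replicate 1, and that for the 16 h Ex-4 interaction ran from −0.36 to −0.087, with both ends from leaving out a Med14 S983A 16 h Ex-4 library. The median turned sign for WT 1 h Ex-4 (−0.034 without 1 h Ex-4 replicate 2) and Med14 S983A 1 h Ex-4 (0.0099 without CON replicate 2), and for the 16 h FSK interaction it ran from 0.096 to 0.23. A group of 2 libraries limits every test, and the ERCC sequences were added to RNA and not to counted cells.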
